A study of Mus musculus with 12 samples.

Results

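This account follows 29 genes of cholesterol synthesis, uptake and efflux, chosen by symbol from the mevalonate and sterol pathways, the SREBP2 control system, intracellular sterol transport and the LXR system. They are 29 of the 53452 genes in the deposited count table, and all 29 were among the 16036 genes with enough counts to be tested. RNA was sequenced from wild-type mouse liver HSCs, cultured straight after isolation. The labels do not spell out HSC, which is taken to mean hepatic stellate cell, a perisinusoidal cell that stores vitamin A. All cultures had 12 h after isolation before a change of medium, and then received riociguat, a stimulator of soluble guanylate cyclase, or its solvent DMSO. The 4 groups of 3 libraries each were DMSO for 12 h, riociguat for 12 h, riociguat for 6 h and riociguat for 24 h. By the labels, both 12 h groups received their agent 12 h after the medium change, and the 6 h group 18 h after it. No hour of addition is listed for the 24 h group, and it is taken to be the change itself. On these times, all 4 groups would reach the end of exposure at the same point after the medium change. The 12 h groups are the pair matched in time of addition and exposure. For 6 h and 24 h, exposure time and stage of culture at addition cannot be told apart from the compound. The sources used here give no dose. They do not say whether the replicates of a group are different mice, isolations or only wells, so each p-value reflects a spread between libraries that could be technical.

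Cells make cholesterol from acetyl-CoA through mevalonate, squalene and lanosterol, and take it up from lipoproteins. When sterol in the endoplasmic reticulum is low, Scap escorts SREBP2, the product of Srebf2, to the Golgi, where it is cleaved into a transcription factor for synthesis and uptake genes. Insig proteins hold Scap back when sterol is high. The liver X receptors (LXRs), which sense oxysterols, induce the exporters Abca1 and Abcg1 and the ubiquitin ligase Mylip, which lowers lipoprotein uptake. Stellate cells store retinyl esters together with cholesterol esters in lipid droplets.

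Library totals ranged from 12953096 to 27358893 counts. DMSO replicate 1 differed most from its group, with chi-square values per degree of freedom of 12.3 and 16.0 against the other DMSO libraries, where all other pairs of replicates lay between 4.08 and 7.93. Levels are given as CPM, counts made comparable between libraries by depth and TMM factors. The 9 stellate markers summed to 2044 ± 31.4 CPM in DMSO (SD, n = 3), of which Reln alone was at 1352 to 1703 CPM over the 12 libraries, while Lrat, the enzyme that esterifies retinol, was at 2.71 to 9.31 CPM. Markers of other liver cells were present as well, with sums in DMSO of 1174 ± 25.2 CPM for 8 hepatocyte markers, 720.5 ± 43.4 CPM for 6 endothelial markers, 283 ± 8.08 CPM for 4 cholangiocyte markers and 63.8 ± 5.46 CPM for 6 macrophage markers (SD, n = 3). No marker of these lists was at 0 in all libraries. In such bulk samples, fewer cells of a type and less RNA per cell cannot be told apart.

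Promoter sequence just before the gene start is shown for 5 genes on which the results below turn or that represent a role. Srebf2 is the control gene whose call at 24 h was kept in every alternative, Insig1 its partner in feedback, Hmgcs1 and Lss stand for the enzymes, and Abca1 for efflux. They come from the RefSeq promoter table for GRCm38.p6, which held 23 of the 29 genes with 30 promoters, and each run of 150 bases ends before both the RefSeq and the annotated gene start. Capitals mark matches on either strand to a sterol regulatory element (TCACNCCAC, the kind of site that SREBP binds), a CCAAT box (bound by the SREBP partner NF-Y), an E-box (CACGTG) or a GC box (GGGCGG, bound by Sp1).
Srebf2, chr15:82147031-82147180, plus strand: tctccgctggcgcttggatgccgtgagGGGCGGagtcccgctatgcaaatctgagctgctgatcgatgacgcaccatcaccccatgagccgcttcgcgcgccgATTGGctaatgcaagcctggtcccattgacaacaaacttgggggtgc
Insig1, chr5:28071213-28071362, plus strand: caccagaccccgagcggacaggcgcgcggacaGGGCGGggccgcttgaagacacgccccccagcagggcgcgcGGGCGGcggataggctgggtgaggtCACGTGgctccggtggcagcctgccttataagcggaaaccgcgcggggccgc
Hmgcs1, chr13:119690201-119690350, plus strand: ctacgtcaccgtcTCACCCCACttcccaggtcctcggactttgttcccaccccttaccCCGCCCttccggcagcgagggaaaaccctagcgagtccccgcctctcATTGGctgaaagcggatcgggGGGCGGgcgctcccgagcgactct
Lss, chr10:76531438-76531587, plus strand: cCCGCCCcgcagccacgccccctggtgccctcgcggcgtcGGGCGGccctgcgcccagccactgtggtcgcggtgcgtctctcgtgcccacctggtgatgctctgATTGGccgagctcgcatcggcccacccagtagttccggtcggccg
Abca1, chr4:53159896-53160045, minus strand: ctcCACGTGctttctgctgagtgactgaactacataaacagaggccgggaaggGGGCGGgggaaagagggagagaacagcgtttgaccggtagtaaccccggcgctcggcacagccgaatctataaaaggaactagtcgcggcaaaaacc

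Over whole promoter windows, from 250 bases before to 50 after each RefSeq start, a CCAAT box was found in 60% of the 30 promoters of the cholesterol genes, against 37.4% of all 32851 promoters in the table and 37.3% of the 14818 promoters of genes tested here. E-boxes were in 23.3% of the cholesterol gene promoters, against 7.15% of all promoters and 9.41% of those of tested genes. These were 7 promoters of 6 genes, since overlapping Scap windows held the same E-box. The GC box was in 76.7%, or 23 promoters of 20 genes, against 35.7% and 59.1%. Promoters of the same gene are thus not independent. The letters of the sterol regulatory element were in 3.33% of the cholesterol gene promoters, which is the Hmgcs1 promoter alone, against 1.24% and 1.15%. That search allowed no mismatch and so misses looser sites. Abcg1, Fdft1, Fdps, Npc1, Sqle and Stard4 had no promoter in the table and were not searched. An exact search for 2 copies of GNTCA with 5 bases between them, a strict form of the DR4 repeat that LXR binds, matched no promoter of these genes, against 0.858% and 0.594%. It allows no mismatch and so misses looser repeats that LXR also binds, and nothing can be read from it about Abca1 or the others. These are matches of letters in one window, and do not show which factors bind there.

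The genes span a range of levels per length. In DMSO, Nr1h2, which encodes LXR beta, stood highest at 47.6 ± 1.08 CPM per kb of its principal transcript, followed by Srebf2 at 38.1 ± 0.515 and Scap at 36.5 ± 1.72 CPM per kb (SD, n = 3), the last pair differing by less than the SD of Scap. Msmo1 at 31.0 ± 0.505 and Fdps at 30.3 ± 0.828 CPM per kb were the highest enzymes and lay within 1 SD of Fdps of each other. At the other end were Stard4 at 4.79 ± 0.224, Nr1h3, which encodes LXR alpha, at 4.43 ± 0.263, and Abcg1 at 3.19 ± 0.186 CPM per kb. Of the exporters, Abca1 was at 8.01 ± 0.603 CPM per kb and Abcg1 was lowest of the 29 genes in all 4 groups.

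After 12 h of riociguat, in the comparison matched in time, none of the 29 cholesterol genes passed the test in either direction. Their fitted log2 fold changes lay between -0.22 for Sc5d and 0.35 for Pmvk, with a median of -0.04, and 21 of 29 were below 0. The median over all genes tested was 0.00247 and 5.66% of all genes were called changed (edgeR, p under 0.05 after Benjamini-Hochberg adjustment). The lowest adjusted p of the 29 was 0.134, for Sc5d, and 3 had an unadjusted p under 0.05. DESeq2 called 0 as well. Sc5d, which places a double bond in the sterol ring, was at 52.1, 49.0 and 53.3 CPM in DMSO and at 42.7, 46.7 and 43.0 CPM after 12 h, and these groups did not overlap. Pmvk, the phosphomevalonate kinase, was at 11.2, 10.5 and 8.67 CPM in DMSO and at 14.8, 13.2 and 10.8 CPM after 12 h, and these groups did. The 95% confidence interval reached from 0.07 to 0.63 on the log2 scale for Pmvk and from -0.36 to 0.21 for Idi1, so changes of such a size remain possible for single genes. For Srebf2 the interval was -0.13 to 0.04 and for Abca1 -0.19 to 0.04.

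After 6 h of riociguat, 2 of the 29 genes changed against DMSO, where 9.72% of all genes were called. Abca1, which exports cholesterol and phospholipid to lipid-poor apolipoprotein, rose, and Scap fell. Abca1 was at 89.2, 77.5 and 80.0 CPM in DMSO replicates 1, 2 and 3 and at 106, 104 and 107 CPM after 6 h. All 6 h libraries lay above all DMSO libraries. The log2 fold change was 0.36 ± 0.05 (SE), or 28.7% higher (edgeR adjusted p = 0.000253). Scap, the sterol-sensing escort of SREBP2, was at 146, 156 and 161 CPM in DMSO and at 135, 131 and 130 CPM after 6 h. No 6 h library reached the DMSO range, and the log2 fold change was -0.23 ± 0.05 (edgeR adjusted p = 0.00363). Scap shares 985 of its 7443 exonic bases with 5830462I19Rik on the opposite strand. The strand setting of the counting is unknown here, so reads of the pair from the shared stretch cannot be told apart.

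The other LXR-induced members had higher means at 6 h without passing the test. Abcg1, which exports cholesterol to high-density lipoprotein, was at 18.2, 17.8 and 19.9 CPM in DMSO and at 21.5, 21.9 and 22.2 CPM after 6 h, a log2 fold change of 0.23 ± 0.08 (edgeR adjusted p = 0.0891). For Mylip the values were 25.8, 25.4 and 26.4 CPM in DMSO and 31.5, 27.1 and 27.7 CPM after 6 h, a log2 fold change of 0.14 ± 0.09 (edgeR adjusted p = 0.371). In both genes every 6 h library exceeded every DMSO library. Such a lack of overlap was common: at 6 h, 4 of the 29 genes lay wholly above DMSO and 6 wholly below, where 2 passed. At 12 h, where 0 passed, 1 lay wholly above DMSO and 7 wholly below. How many of all genes did so was not computed. The receptors themselves did not pass: Nr1h2 gave 0.04 ± 0.07 and Nr1h3 0.11 ± 0.13 on the log2 scale. None of the 18 synthesis enzymes passed at 6 h, and their log2 fold changes ran from -0.19 for Tm7sf2 to 0.13 for Hmgcs1, with a median of -0.05.

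**Figure D1:**
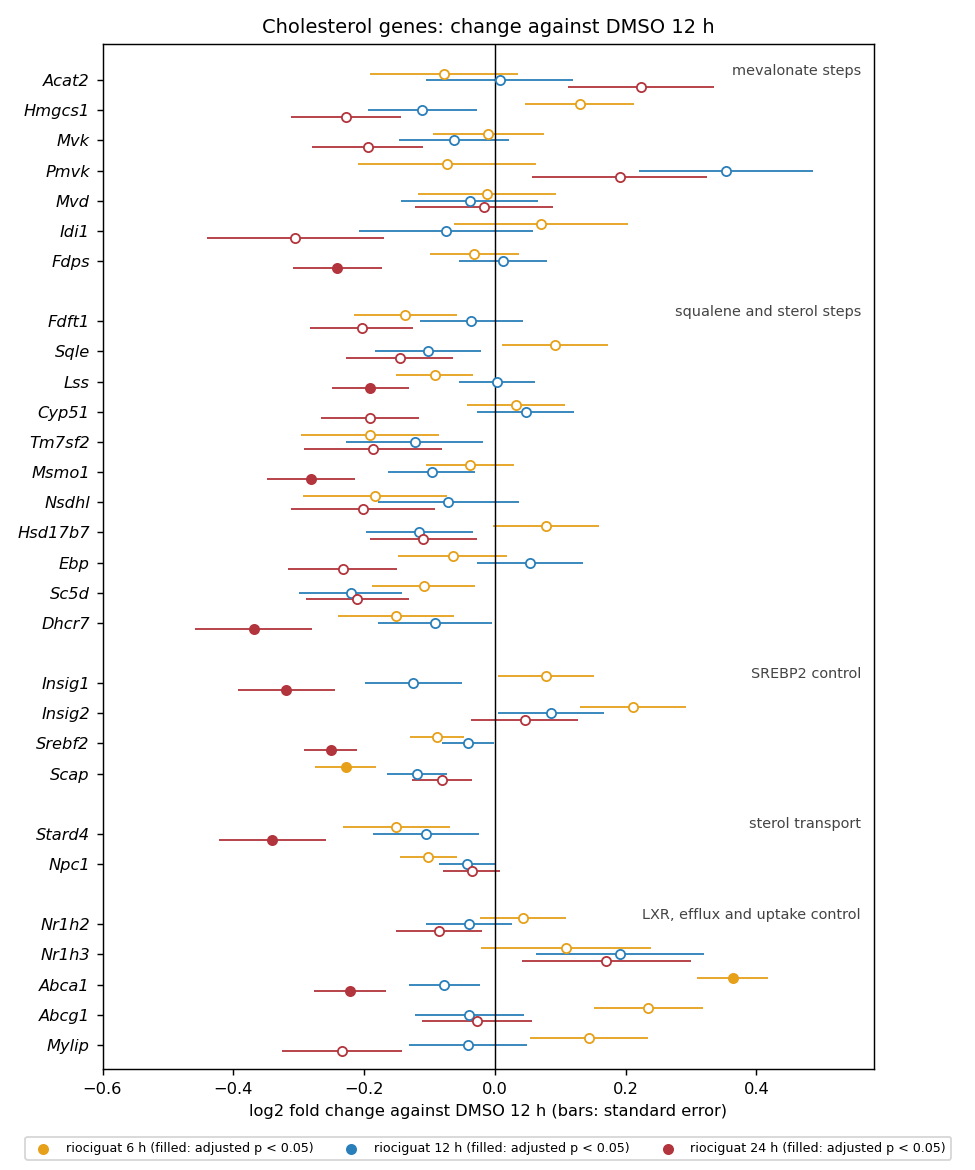
Fitted log2 fold change against DMSO 12 h (horizontal axis, bars are standard errors) of the 29 cholesterol genes, ordered by role, after 6, 12 and 24 h of riociguat. Filled points passed an adjusted p of 0.05. Filled points at 24 h all lie below 0, no 12 h point is filled, and Abca1 is filled above 0 at 6 h and below 0 at 24 h.

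After 24 h of riociguat, 8 of the 29 genes fell against DMSO and none rose. That is 27.6%, where 7.41% of all genes tested were called lower and 13.4% were called in either direction. The 8 were the enzymes Fdps, Lss, Msmo1 and Dhcr7, the control genes Srebf2 and Insig1, the sterol carrier Stard4 and the exporter Abca1. Of all 29 genes, 25 had a log2 fold change below 0, and the median was -0.19, against -0.00646 over all genes tested. The 4 above 0, none of which passed, were Acat2 at 0.22 ± 0.11, Pmvk at 0.19 ± 0.13, Nr1h3 at 0.17 ± 0.13 and Insig2 at 0.05 ± 0.08 (log2 fold change ± SE). The falls that passed were small, from 12.4% for Lss to 22.6% for Dhcr7.

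Of the 7 enzymes of the mevalonate steps, 1 fell at 24 h. Fdps, which makes farnesyl diphosphate, the branch point to sterols and to protein prenylation, was at 41.2, 43.2 and 41.2 CPM in DMSO and at 34.8, 35.1 and 36.4 CPM after 24 h. The groups did not overlap, and the log2 fold change was -0.24 ± 0.07 (edgeR adjusted p = 0.0253). This call was lost in 5 of 11 alternatives, each of which left out 1 library (highest adjusted p = 0.105), and Fdps shares 1124 exonic bases with Gm43738 on the same strand.

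Hmgcs1, which condenses acetyl units ahead of mevalonate, and Idi1, which isomerises the isoprene unit, had log2 fold changes of similar or larger size that did not pass. Hmgcs1 was at 81.4, 81.9 and 80.6 CPM in DMSO and at 81.6, 62.7 and 63.6 CPM after 24 h. Replicate 1 of the 24 h group thus lay within the DMSO range, and the other 24 h libraries lay below it (log2 fold change -0.23 ± 0.08, edgeR adjusted p = 0.0840). Idi1 showed the same split, with 54.5, 47.8 and 46.3 CPM in DMSO against 50.7, 34.6 and 34.5 CPM after 24 h (log2 fold change -0.31 ± 0.13, edgeR adjusted p = 0.157). Mvk, the mevalonate kinase, fitted at -0.19 ± 0.09, and Mvd, the decarboxylase, at -0.02 ± 0.11 on the log2 scale. Acat2, a cytosolic thiolase that joins acetyl-CoA units, went the other way without passing, with 13.7 ± 1.69 CPM in DMSO and 16.0 ± 0.830 CPM after 24 h (SD, n = 3).

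Among the 11 enzymes from squalene to cholesterol, 3 fell at 24 h. Msmo1, which takes part in removing methyl groups from lanosterol, was at 62.7, 64.5 and 62.7 CPM in DMSO and at 57.2, 51.9 and 47.1 CPM after 24 h (log2 fold change -0.28 ± 0.07, edgeR adjusted p = 0.00986). Dhcr7, which catalyses the last reduction to cholesterol in one branch of the pathway, was at 18.5, 20.9 and 19.5 CPM in DMSO and at 15.3, 14.8 and 15.6 CPM after 24 h (log2 fold change -0.37 ± 0.09, edgeR adjusted p = 0.00978). In both genes every 24 h library lay below every DMSO library. Lss, which folds the squalene epoxide into lanosterol, was at 39.9, 41.8 and 41.6 CPM in DMSO and at 35.3, 36.3 and 36.6 CPM after 24 h (log2 fold change -0.19 ± 0.06, edgeR adjusted p = 0.0396). The Lss groups did not overlap either, but its call was lost in 10 of 11 alternatives (highest adjusted p = 0.186). The Msmo1 call was lost without 24 h replicate 3 (adjusted p = 0.0716) and that of Dhcr7 without DMSO replicate 2 (adjusted p = 0.0592).

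The remaining 8 enzymes of these steps all had log2 fold changes below 0 at 24 h, from -0.23 ± 0.08 for Ebp to -0.11 ± 0.08 for Hsd17b7, and none passed. Ebp, a sterol isomerase, was at 22.9, 22.1 and 23.2 CPM in DMSO and at 18.9, 17.9 and 21.2 CPM after 24 h, without overlap (edgeR adjusted p = 0.0754). Tm7sf2 and Nsdhl, which act on the sterol ring between lanosterol and cholesterol, fitted at -0.19 ± 0.11 and -0.20 ± 0.11 on the log2 scale, and Sc5d at -0.21 ± 0.08. Sqle, the squalene epoxidase, was at 41.7, 46.1 and 43.3 CPM in DMSO and at 44.2, 36.5 and 37.6 CPM after 24 h. Cyp51, the lanosterol demethylase, was at 51.9, 54.0 and 57.6 CPM in DMSO and at 54.3, 43.3 and 45.3 CPM after 24 h. Fdft1, which joins farnesyl units into squalene, gave 38.5, 40.8 and 39.6 CPM in DMSO and 39.5, 31.1 and 32.5 CPM after 24 h. As for Hmgcs1 and Idi1, the overlap with DMSO came from replicate 1 of the 24 h group in all 3 of these genes. Fdft1 shares 774 of its 4227 exonic bases with the abundant lysosomal protease gene Ctsb on the opposite strand, so its reads from that stretch are uncertain. Hmgcs1, Idi1, Lss, Cyp51, Tm7sf2, Npc1 and Nr1h3 also share 34 to 557 exonic bases with other genes.

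**Figure D2:**
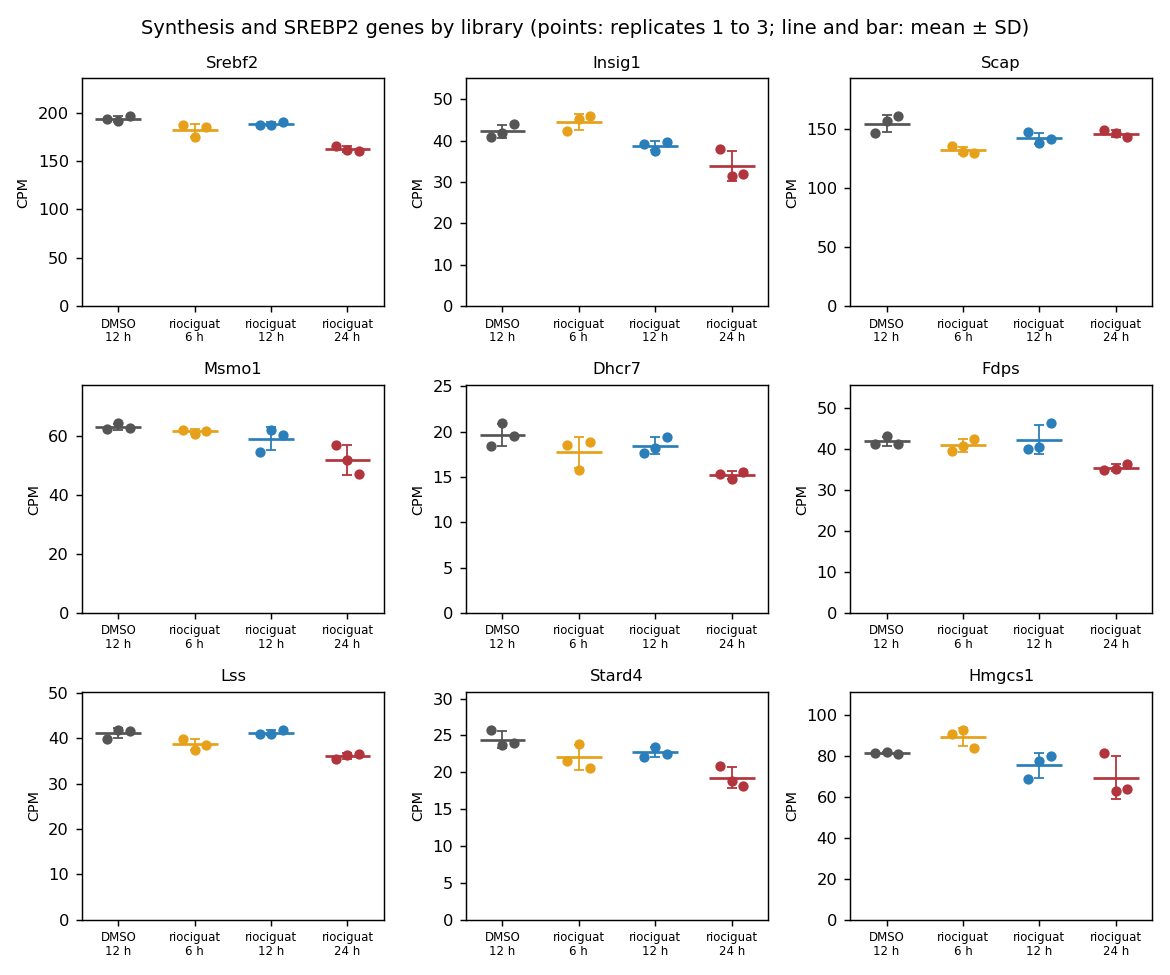
CPM in each library for 9 synthesis and SREBP2 genes in the 4 groups, as points for replicates 1 to 3 with the mean (line) and SD (bar), on axes that start at 0. For Srebf2, Dhcr7, Fdps and Lss the 24 h points lie close together below DMSO, while for Hmgcs1 and Insig1 replicate 1 of the 24 h group lies above its partners.

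Summed over the 18 enzymes, the level was 656 ± 2.43 CPM in DMSO, 649.7 ± 9.40 CPM after 6 h, 629 ± 22.7 CPM after 12 h and 572 ± 46.3 CPM after 24 h (SD, n = 3). The 24 h libraries held 625.0, 540.6 and 549.9 CPM, so replicate 1 stood near the 12 h group and the others below every library of the other groups. Replicate 1 was the highest of the 24 h group in 11 of the 18 enzymes. In it, 7 enzymes lay below all DMSO libraries, against 14 in replicate 2 and 15 in replicate 3. In the groups with no enzyme called, this count was 5, 7 and 10 in the 6 h libraries and 10, 9 and 6 in the 12 h libraries. The share over all genes was not computed, so these counts do not show a shift particular to the enzymes. Without 24 h replicate 1, 10 of the 29 genes fell: Hmgcs1, Idi1, Fdft1, Cyp51, Msmo1, Sc5d, Dhcr7, Insig1, Srebf2 and Stard4, whereas Fdps, Lss and Abca1 no longer passed. Without 24 h replicate 3 the count was 4, and without DMSO replicate 2 it was 5. Without DMSO replicate 1, the library that differed most from its group, it was 7, all of them genes named above, and Abca1 was the one that no longer passed. In these fits, in that order, 840, 846, 797 and 1258 of all genes were called lower, in place of 1189.

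**Figure D3:**
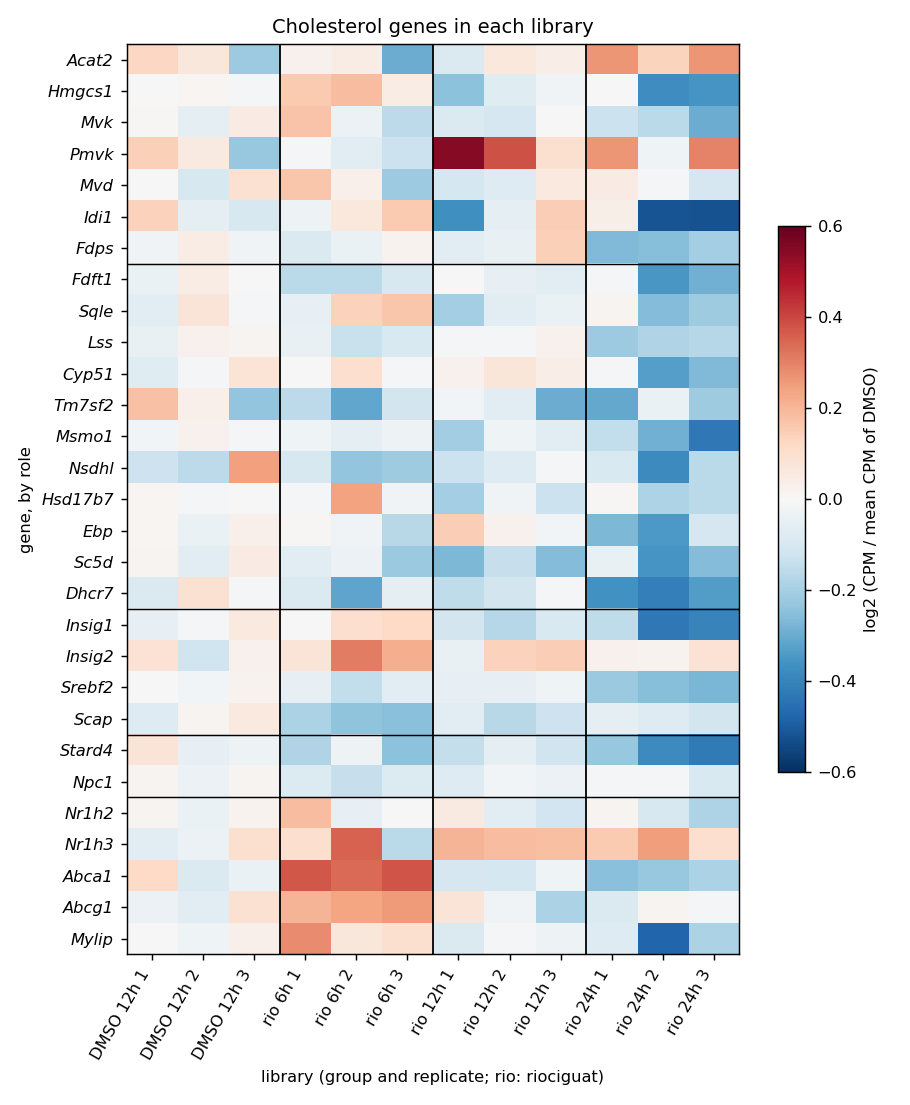
Log2 ratio of CPM to the mean of the DMSO libraries (colour, from -0.6 to 0.6) for the 29 cholesterol genes in rows by role and the 12 libraries in columns. Most enzymes are below DMSO in replicates 2 and 3 of the 24 h group, replicate 1 is the highest of that group in 11 of 18 enzymes, and Abca1, Abcg1 and Mylip are above DMSO in all 6 h libraries.

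Of the 4 genes of SREBP2 control, Srebf2 and Insig1 fell at 24 h. Srebf2 (ENSMUSG00000022463, GRCm38 chromosome 15, 82147181 to 82205379, plus strand) was at 193, 191 and 196 CPM in DMSO, at 187, 174 and 185 CPM after 6 h, at 187, 187 and 190 CPM after 12 h and at 166, 162 and 160 CPM after 24 h. The 24 h libraries lay below every other library, and all 3 riociguat groups lay below DMSO. The log2 fold change at 24 h was -0.25 ± 0.04, or 16.0% lower (edgeR adjusted p = 0.000392), and the call was kept in all 11 alternatives, with a highest adjusted p of 0.00448. The corresponding values were -0.09 ± 0.04 at 6 h (edgeR adjusted p = 0.199) and -0.04 ± 0.04 at 12 h (edgeR adjusted p = 0.686).

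Insig1, the SREBP-induced retention factor of Scap, was at 40.9, 41.9 and 44.0 CPM in DMSO, at 42.4, 45.3 and 45.9 CPM after 6 h, at 39.2, 37.5 and 39.6 CPM after 12 h and at 38.0, 31.4 and 32.0 CPM after 24 h. Its 24 h libraries lay below all DMSO libraries, with a log2 fold change of -0.32 ± 0.07 (edgeR adjusted p = 0.00796), a call lost without 24 h replicate 3 (adjusted p = 0.0531). Insig2, its relative, was at 25.4 to 29.4 CPM in DMSO and at 28.1 to 29.4 CPM after 24 h, and did not pass at any time. Scap at 24 h was at 149, 146 and 143 CPM, which overlapped the DMSO libraries (log2 fold change -0.08 ± 0.05, edgeR adjusted p = 0.284).

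Of the sterol transport pair, Stard4, a soluble carrier that moves cholesterol between membranes, was at 25.7, 23.6 and 23.9 CPM in DMSO and at 20.8, 18.7 and 18.2 CPM after 24 h. The groups did not overlap, and the log2 fold change was -0.34 ± 0.08 (edgeR adjusted p = 0.00949), lost without 24 h replicate 3 (adjusted p = 0.0578). Npc1, which exports cholesterol from the lysosome, was at 131 to 136 CPM in DMSO and at 126 to 133 CPM after 24 h. It passed at no time, with a narrow interval of -0.13 to 0.06 for the log2 fold change at 24 h.

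In the LXR group, Abca1 (ENSMUSG00000015243, GRCm38 chromosome 4, 53030787 to 53159895, minus strand) was above DMSO at 6 h and below it at 24 h. It was at 76.6, 76.6 and 80.7 CPM after 12 h and at 69.1, 70.4 and 72.1 CPM after 24 h. Every 24 h library lay below every other library, with a log2 fold change against DMSO of -0.22 ± 0.05 (edgeR adjusted p = 0.0112). This call was lost without DMSO replicate 1, in which Abca1 was highest of its group, and without 24 h replicate 1 (adjusted p = 0.0626). Mylip was at 24.5, 18.6 and 22.7 CPM after 24 h, below all DMSO libraries, with a log2 fold change of -0.23 ± 0.09 that did not pass (edgeR adjusted p = 0.104). Abcg1 was at 17.5, 18.8 and 18.5 CPM after 24 h, which overlapped the DMSO libraries.

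The exposure times were also compared with each other, which does not use the DMSO libraries for the contrast. Between 12 h and 6 h, 1 of the 29 genes changed, where 6.09% of all genes did: Abca1 was 26.3% lower at 12 h, a log2 difference of -0.44 ± 0.05 (edgeR adjusted p = 4.97e-05). Between 24 h and 12 h it was again 1 gene, where 3.08% of all genes were called: Srebf2 was 13.5% lower at 24 h, a log2 difference of -0.21 ± 0.04 (edgeR adjusted p = 0.00626). Both calls were kept in all 11 alternatives. Without 24 h replicate 1, Fdft1, Cyp51 and Insig1 were called lower at 24 h than at 12 h as well, which made 4, and without 12 h replicate 3 the count between 12 h and 6 h was 2. Over all genes, these fits called 357 and 689, in place of 494 and 976.

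Between 24 h and 6 h, 9 of the 29 genes changed, where 15.3% of all genes were called and 8.13% were called lower at 24 h. Lower at 24 h were 8, namely Hmgcs1, Fdps, Msmo1, Insig1, Srebf2, Abca1, Abcg1 and Mylip, and Scap was higher. The difference was largest for Abca1, with -0.59 ± 0.05 on the log2 scale or 33.3% lower (edgeR adjusted p = 8.31e-07). Insig1 differed by -0.40 ± 0.07 (edgeR adjusted p = 0.00123) and Mylip by -0.38 ± 0.09 (edgeR adjusted p = 0.00841), and the calls of these 3 genes were kept in all 11 alternatives. Hmgcs1, at 90.7, 92.6 and 84.0 CPM after 6 h, stood above every 24 h library and differed by -0.36 ± 0.08 (edgeR adjusted p = 0.00680). The Fdps call was lost in all 11 alternatives, that of Abcg1 in 10, Scap in 7, Msmo1 in 4 (highest adjusted p = 0.139), Srebf2 in 3 (highest adjusted p = 0.0604) and Hmgcs1 in 1 (adjusted p = 0.0530). Without 24 h replicate 3 the count was 3, without 6 h replicate 3 it was 4, and without 24 h replicate 2 it was 5. Over all genes the count was then 1821, 1772 and 2117, in place of 2451.

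Markers of other cells moved with these groups. The 8 hepatocyte markers summed to 1149 to 1199 CPM in the DMSO libraries, 968.5 to 1108 CPM after 6 h, 1077 to 1336 CPM after 12 h and 545 to 766 CPM after 24 h. Of these, 7 fell at 24 h against DMSO, by a median log2 fold change of -0.83 over the list, with Alb at -0.84 ± 0.09, and Hnf4a was the one that did not pass. Within the 24 h group, the hepatocyte sum was 673 CPM in replicate 1, 766 CPM in replicate 2 and 545 CPM in replicate 3. The hepatocyte sum was highest in replicate 2, and the enzyme sum was highest in replicate 1. The cholangiocyte sum was 279, 240 and 247 CPM in replicates 1, 2 and 3, and the stellate sum 2410, 2340 and 2294 CPM. Both were highest in replicate 1, as the enzyme sum was. The endothelial sum was highest in replicate 3 and the macrophage sum in replicate 2. The 6 endothelial markers summed to 674 to 760 CPM in DMSO, 843 to 913 CPM after 6 h, 655 to 694 CPM after 12 h and 549 to 569 CPM after 24 h, the same order of groups as for Abca1. Of these, Cdh5 and Kdr rose at 6 h, by 0.34 ± 0.05 and 0.37 ± 0.05 on the log2 scale. At 24 h Cdh5 and Pecam1 fell, by 0.55 ± 0.05 and 0.40 ± 0.07, and Clec4g rose by 0.41 ± 0.10. The stellate sum was 2348 ± 58.3 CPM at 24 h, with 5 of 9 markers higher and 2 lower. The part that these cells have in the changes of the cholesterol genes was not tested.

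**Figure D4:**
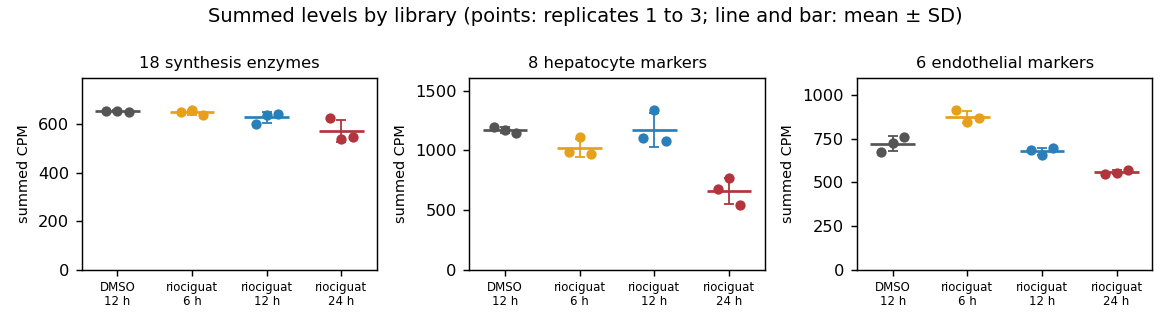
Summed CPM in each library of the 18 synthesis enzymes, 8 hepatocyte markers and 6 endothelial markers, as points for replicates 1 to 3 with the mean (line) and SD (bar), on axes that start at 0. All 3 sums have their lowest mean at 24 h, and the endothelial sum has its highest at 6 h.

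A wider set of 72 genes around the pathway was read alongside, in 4 lists of mevalonate branches and accessory enzymes, SREBP processing and sterol-regulated degradation, uptake with lysosome, storage and transport, and LXR targets with co-factors and oxysterol enzymes. Of these, 69 were tested, and Abcg5, Abcg8 and Rxrg had too few counts (39 to 46 over all libraries). In the comparison matched in time, 4 of 69 changed, or 5.80% against 5.66% of all genes, 3 higher and 1 lower. Chosen for naming after their values were seen, these were Por, the electron donor of Cyp51 and squalene epoxidase, at 0.21 ± 0.04 on the log2 scale (edgeR adjusted p = 0.00124), Lrp8, a lipoprotein receptor, at 0.26 ± 0.05 (0.00165), Tspo, a cholesterol-binding protein of the outer mitochondrial membrane, at 0.24 ± 0.06 (0.0286), and Osbpl5, a lipid transfer protein, at -0.25 ± 0.05 (0.00591).

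Against DMSO, 6 of the 69 were higher and 3 lower at 6 h, and 4 were higher and 7 lower at 24 h, or 13% and 15.9% where 9.72% and 13.4% of all genes changed. The uptake, lysosome, storage and transport list had 4 of 21 higher and 0 lower at 6 h. Of all genes, 4.48% were called higher at that time and 5.24% lower. Lipa, the lysosomal acid lipase that frees cholesterol from lipoprotein esters, was at 164, 171 and 155 CPM in DMSO and at 234, 217 and 223 CPM after 6 h, then at 172, 181 and 178 CPM after 12 h and at 160, 160 and 160 CPM after 24 h. Its log2 fold change was 0.46 ± 0.05 at 6 h (edgeR adjusted p = 3.54e-06). Scarb1, the receptor for high-density lipoprotein, was at 133, 149 and 147 CPM in DMSO, at 179, 162 and 184 CPM after 6 h and at 114, 110 and 110 CPM after 24 h. It rose by 0.29 ± 0.06 at 6 h (edgeR adjusted p = 0.00386) and fell by 0.36 ± 0.06 at 24 h (edgeR adjusted p = 0.000534). For both genes, as for Abca1, Abcg1 and Mylip, the 6 h libraries were the highest of the 12.

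**Figure D5:**
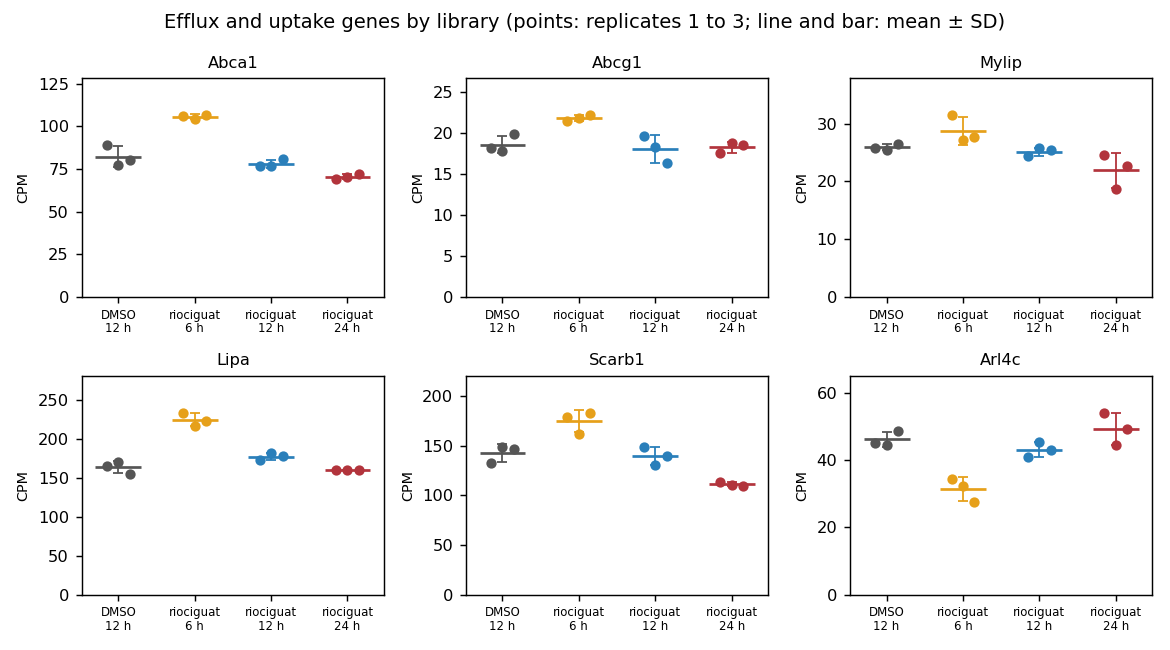
CPM in each library for Abca1, Abcg1, Mylip, Lipa, Scarb1 and Arl4c in the 4 groups, as points for replicates 1 to 3 with the mean (line) and SD (bar), on axes that start at 0. The 6 h points are highest for Abca1, Abcg1, Mylip, Lipa and Scarb1 and lowest for Arl4c.

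In the list of LXR targets, co-factors and oxysterol enzymes, 1 of 15 rose and 1 fell at 6 h, and 1 rose and 3 fell at 24 h. That is 13.3% and 26.7% of the list, where 9.72% and 13.4% of all genes were called. Arl4c, a small GTPase that LXR induces in other cells, fell at 6 h, where Abca1 rose, with 45.1, 44.5 and 48.6 CPM in DMSO and 34.2, 32.2 and 27.4 CPM after 6 h (log2 fold change -0.57 ± 0.09, edgeR adjusted p = 0.000352). Apoa1, the main protein of high-density lipoprotein and one of the 8 hepatocyte markers, fell from 110 ± 6.21 CPM in DMSO to 63.7 ± 13.1 CPM at 24 h (SD, n = 3). The change was -0.80 ± 0.12 on the log2 scale (edgeR adjusted p = 0.000236). Ch25h, which makes an oxysterol, was at 9.44, 10.3 and 8.16 CPM after 6 h and at 13.5, 15.8 and 12.5 CPM after 24 h. The log2 difference between these times was 0.58 ± 0.14 (edgeR adjusted p = 0.00968). The list of SREBP processing and sterol-regulated degradation had 0 higher and 2 lower of 15 at 6 h, and 1 higher and 1 lower at 24 h. That is 13.3% at both times, beside the same 9.72% and 13.4% of all genes.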

How the data were processed

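RNA-seq was analysed for 12 libraries, 4 groups of 3. The authors deposited 1 table of expected counts per gene, whole numbers as found. Per the submitters' processing notes, FastQC, fastp, Salmon and DESeq2 were named and the build was GRCm38. Roles, versions, annotation and strand setting are not given in the sources used here. Of 53452 genes, 53355 matched a symbol. The test of counts was the quasi-likelihood F test of edgeR 4.0.16 (R 4.3.3, two-sided) after filterByExpr and TMM scaling, with all libraries in a single fit and no covariate besides group. P-values were adjusted by Benjamini-Hochberg over the 16036 genes tested in each of 6 comparisons, and a gene is called changed at an adjusted p under 0.05. The biological coefficient of variation was 0.0798. Standard errors come from the moderated F statistic. The steps were tested on simulated data. The 3 comparisons with DMSO share their control libraries. Levels per kb use the longest principal coding transcript of the GENCODE annotation, whose positions are on GRCm38. The members, pathway lists and markers were chosen with earlier results of these data known. All 29 members are named. Of the pathway lists, the rule named genes called at 12 h with an absolute log2 fold change of at least 0.3, of which there were none, and the 6 largest changes called in other comparisons, 1 of which is not reported here. Alternatives were RLE factors (the DESeq2 size factors, in edgeR), no low-count filter, DESeq2 1.42.0, only the 6 libraries compared, a replicate block, and each library left out.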

Additional observations from a re-analysis of the deposited data

Results flagged for a closer look

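For 11 pairs of a cholesterol gene and 2 exposure times, the level differed between the 2 riociguat groups in a direct test (edgeR adjusted p under 0.05). All are given as log2 differences, the later time minus the earlier. Abca1 differed by -0.44 between 12 h and 6 h and by -0.59 between 24 h and 6 h. Srebf2 differed by -0.21 between 24 h and 12 h and by -0.16 between 24 h and 6 h. Between 24 h and 6 h, Hmgcs1 differed by -0.36, Fdps by -0.21, Msmo1 by -0.24, Insig1 by -0.40, Abcg1 by -0.26, Mylip by -0.38 and Scap by 0.15. Of the calls between 24 h and 6 h, that of Fdps was lost in all 11 alternatives, Abcg1 in 10, Scap in 7, Msmo1 in 4, Srebf2 in 3 and Hmgcs1 in 1. Exposure times also differ in the stage of culture at which riociguat was added, and the 2 cannot be told apart. DMSO was given for 12 h only, so neither can be told apart from the compound.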

How the results depend on the processing

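No called log2 fold change of the 29 genes reversed under any alternative. Without the low-count filter, 3 of them were called between 12 h and 6 h and 3 between 24 h and 12 h, in place of 1 each. Of all genes, 1325 and 838 were then called in these comparisons, in place of 976 and 494. With only the 6 libraries compared, 2 members and 1012 of all genes were called between 12 h and 6 h. DESeq2 called 2 members and 664 of all genes between 24 h and 12 h. Leaving out 1 library at a time gave 4 to 10 members at 24 h against DMSO, 3 to 9 between 24 h and 6 h, 1 to 2 between 12 h and 6 h and 1 to 4 between 24 h and 12 h. Over all genes it gave 510 to 1262 at 12 h, 955 to 1852 at 6 h and 1395 to 2566 at 24 h against DMSO. Between exposure times it gave 596 to 836 for 12 h and 6 h, 318 to 432 for 24 h and 12 h and 1772 to 2117 for 24 h and 6 h. RLE factors moved the median of all genes by less than 0.1 on the log2 scale. The labels share replicate numbers, but nothing says that a number marks a batch. Of 18 same-numbered pairs, 0 correlated above 0.1 in their deviations from the group means (r from -0.136 to 0.0843). Pairs with different numbers had r from -0.0739 to 0.0978, and 8 of 12 libraries correlated best with their own number. Whether the numbers pair libraries is not settled by these values. With the replicate block, 0 members were called at 12 h, 2 at 6 h and 7 at 24 h against DMSO, 1 between 12 h and 6 h, 1 between 24 h and 12 h and 6 between 24 h and 6 h. Both the spread between 3 libraries and, for the members with few counts, depth limit what small changes could be seen.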
